A study of Mus musculus with 6 samples.

Results

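Leptomeningeal fibroblasts are the mesenchymal cells of the pia and arachnoid, the thin layers that lie directly on the brain surface beneath the dura. Cells of this kind were chosen by the measured UMI counts of marker genes in the 4 cortical surface-associated (CSA) single-cell libraries. A barcode counted as a member when it had at least 500 genes, at most 10% of its unique molecular identifiers (UMIs, counts of captured mRNA molecules) on mitochondrial genes, and a UMI of at least 4 of 8 fibroblast markers. The markers were Dcn and Lum (small proteoglycans), Col1a2 and Col3a1 (fibrillar collagens), Pcolce (an enhancer of procollagen processing), Fbln1 (a matrix glycoprotein), Serpinf1 (a secreted serpin) and Islr (a secreted or membrane glycoprotein of stromal cells). Barcodes with any UMI of Ptprc, Pecam1 or Kcnj8, which mark leukocytes, endothelial cells and pericytes, were left out. This gate held 308 of the 5339 cells of the CSA libraries that passed the quality filter (5.77%, exact binomial 95% interval 5.16 to 6.43%), of 8804 such cells in the whole series.

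The tissue came from adult wild-type C57BL6 mice, with several mice of both sexes pooled in each library. For the CSA libraries the surface of the dorsal cortex was digested, and for the 2 bone-associated (BA) libraries the tissue on the inner side of the skull, labelled dura/skull, was scraped off, chopped and digested. All cells were sorted as viable (DRAQ5-positive and propidium iodide-negative) and run on the 10x Genomics Chromium system, without any treatment of the mice that differed between groups. The libraries are the replicates here, so every p-value measures the spread between libraries of pooled mice and not between mice.

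The leptomeninges enclose the cerebrospinal fluid that surrounds the brain. Their fibroblasts lay down the basement membrane at the brain surface, are joined by gap and adherens junctions, carry transporters for organic anions, amino acids and neurotransmitters, and release signals such as retinoic acid, bone morphogenetic proteins (BMPs) and Wnts. Ptgds, which makes prostaglandin D2 and carries lipophilic molecules in the cerebrospinal fluid, is among their best-known products.

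The genes on which the results turn lie in part next to each other in the genome. On GRCm38 (mm10), Slc22a8 (chromosome 19, 8591254 to 8611835) and Slc22a6 (8618039 to 8628299), both organic anion transporters, are 6203 bases apart on the plus strand with 0 protein-coding genes between them. The same holds for Slc6a13 (chromosome 6, 121300227 to 121337733) and Slc6a12 (121343076 to 121365775), which import GABA and betaine and are 5342 bases apart. The connexin genes Gjb2 (chromosome 14, 57098600 to 57104702) and Gjb6 (57123303 to 57133611), both on the minus strand, are 18600 bases apart with 1 predicted gene, Gm4491, between them.

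The 250 bases before the transcription start are shown for 4 genes whose levels set these cells apart in the comparisons that follow: an organic anion transporter, Ranbp3l (which exports SMAD proteins from the nucleus) and the connexin pair. They are RefSeq sequences of GRCm38.p6, written 5′ to 3′ on the strand of the gene, and overlap 0 annotated exons. Capitals mark matches on either strand to GTAAACA (a forkhead motif), AGGTCA (the half-site of nuclear receptors such as those for retinoic acid) and CANNTG (an E-box).
Slc22a6, chr19:8617746-8617995, plus strand: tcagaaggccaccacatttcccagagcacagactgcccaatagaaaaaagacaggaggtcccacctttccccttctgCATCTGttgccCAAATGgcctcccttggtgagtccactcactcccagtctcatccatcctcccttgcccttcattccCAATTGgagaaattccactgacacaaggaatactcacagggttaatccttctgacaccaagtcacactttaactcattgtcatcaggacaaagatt
Ranbp3l, chr15:8967699-8967948, plus strand: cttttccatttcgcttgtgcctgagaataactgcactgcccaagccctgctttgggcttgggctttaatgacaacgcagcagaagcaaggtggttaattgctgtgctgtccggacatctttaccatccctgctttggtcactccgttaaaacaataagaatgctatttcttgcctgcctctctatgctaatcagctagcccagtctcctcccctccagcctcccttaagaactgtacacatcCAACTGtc
Gjb6, chr14:57133612-57133861, minus strand: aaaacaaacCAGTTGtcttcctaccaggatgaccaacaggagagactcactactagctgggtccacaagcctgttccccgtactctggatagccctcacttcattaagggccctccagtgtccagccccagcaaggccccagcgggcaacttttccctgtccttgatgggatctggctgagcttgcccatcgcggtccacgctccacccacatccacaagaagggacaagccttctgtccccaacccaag
Gjb2, chr14:57104703-57104952, minus strand: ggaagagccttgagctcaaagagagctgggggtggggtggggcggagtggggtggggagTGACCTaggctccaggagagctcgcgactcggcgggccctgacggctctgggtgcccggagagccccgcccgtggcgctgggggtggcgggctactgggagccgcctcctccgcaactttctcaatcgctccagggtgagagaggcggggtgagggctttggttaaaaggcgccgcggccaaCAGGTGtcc
The window of Slc22a6 held 3 E-boxes, and those of Ranbp3l, Gjb6 and Gjb2 held 1 each. Gjb2 also held 1 nuclear receptor half-site, on the strand opposite to the one printed (TGACCT). Of 32851 such windows of the annotation, 66.2% held an E-box, 14.0% the half-site and 3.17% the forkhead motif, so an E-box match is common to most genes. A match describes letters only.

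The members were unevenly spread over the libraries. CSA libraries 1 to 4 held 86, 166, 31 and 25 members among 743, 1252, 1103 and 2241 cells. In library 1 they made up 11.6% (9.36 to 14.1%, exact binomial), in library 2 13.3% (11.4 to 15.3%), in library 3 2.81% (1.92 to 3.97%) and in library 4 1.12% (0.723 to 1.64%). The intervals of libraries 1 and 2 did not overlap those of libraries 3 and 4. They cover counting error only, and the digest, the sort and the gate can also set such shares. The same gate held 301 of the 3465 BA cells (8.69%), 50 from BA library 1 and 251 from BA library 2.

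Depth differed in the same direction. Members had medians of 9330.5, 10296.5, 5305 and 4799 UMIs in CSA libraries 1 to 4, and their summed UMIs were 935653, 1792421, 199466 and 150542. Values of libraries 3 and 4 therefore rest on far fewer counts. Hemoglobin transcripts made up 12.3% and 18.7% of the member UMIs in libraries 3 and 4 but 0.000428% and 0.000112% in libraries 1 and 2. All levels are given as counts per 1e+06 UMIs (CPM) of the summed cells of a library, with hemoglobin genes left out of the total. No cell barcode was shared by members of different libraries.

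The label was checked against 10 genes that the study names for leptomeningeal cells and that the gate did not use (Slc22a6, Gjb6, Gjb2, Lama1, Ptgds, Bmp6, Bmp7, Wnt5a, Crabp2 and Aldh1a2). The study took most of them from earlier work to annotate these libraries and names all 10 for these cells, so they are no independent evidence of the label. All 80 members with 8 gate markers, all 93 with 7 and all 45 with 6 had UMIs of at least 3 of these genes. Among the 28 members with 5 markers, 23 (82.1%) did. Among the 62 with exactly 4 markers, only 12 (19.4%) did, and 49 of those 62 passed a gate for smooth muscle cells (at least 4 of Des, Tagln, Cnn1, Myl9, Tpm2, Pln and Mustn1). The mean number of leptomeningeal genes per cell rose from 1.82 at 4 markers to 6.04 at 5 and 8.66 at 8 markers, whereas the mean number of smooth muscle markers went from 5.53 to 1.39 and 1.61. Just outside the gate, of 124 cells with 3 markers, 109 passed the smooth muscle gate and 11 had at least 3 leptomeningeal genes.

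The data thus went against the label for most cells at the lower edge of the gate. In all, 93 members (30.2%) also passed the gate of another cell type: 57 that of smooth muscle cells, 30 that of microglia, 16 that of pericytes, 8 that of border macrophages, 2 that of endothelial cells and 2 that of choroid plexus epithelium. Of the 93, 51 had 4 markers and 5 had 5 markers, while 4, 14 and 19 had 6, 7 and 8 markers, where all cells had at least 3 leptomeningeal genes. Libraries 1 and 2 held 87 of these cells and libraries 3 and 4 held 6. Separately, 113 members had a UMI of Ccl19 or Colec11, genes of a perivascular stromal population, and 19 members scored as doublets, 14 of them in library 4. The number of cells taken as doublets was preset from the barcodes and cells of each library. It was 6, 18, 46 and 100 in libraries 1 to 4, which in part sets the excess in library 4. The remaining 215 members passed no other gate, and values without the other 93 are given where they move a count by over 1.5 times.

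**Figure D1:**
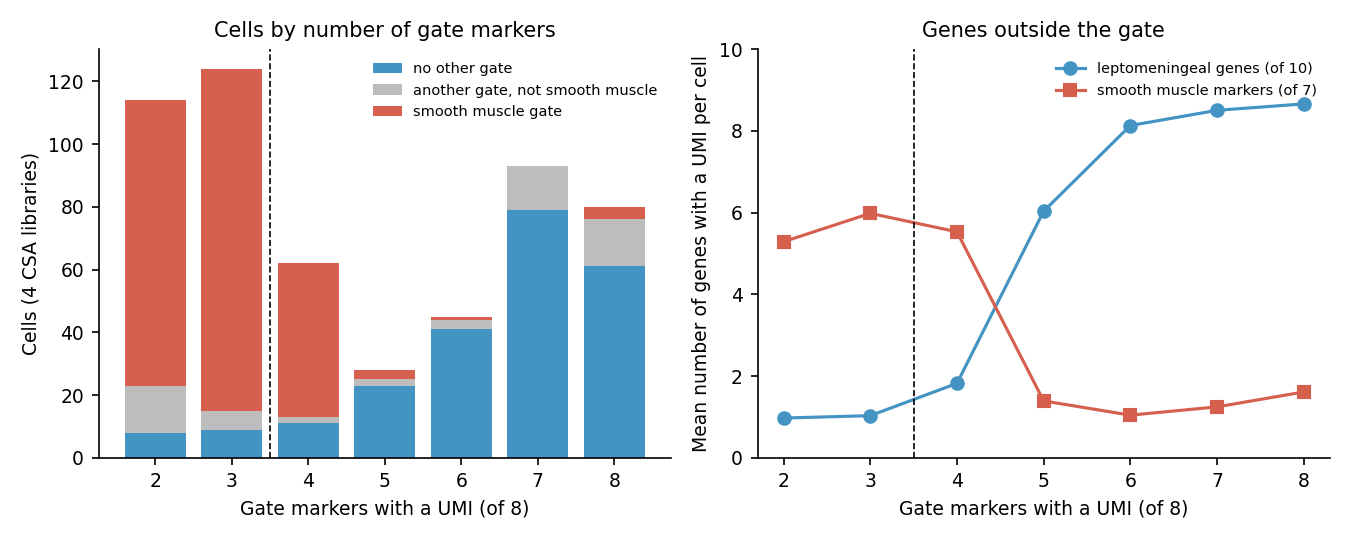
Left, CSA cells without Ptprc, Pecam1 or Kcnj8 (y axis, number of cells) by how many of the 8 gate markers had a UMI (x axis), coloured by whether the cell also passed the smooth muscle gate or another gate; the dashed line is the gate. Right, mean number of leptomeningeal genes (of 10) and smooth muscle markers (of 7) with a UMI per cell. Cells with 3 or 4 markers were mostly in the smooth muscle gate, and the leptomeningeal mean rose from 1.82 to 6.04 between 4 and 5 markers.

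Of the gate markers themselves, given as a description, Dcn stood at 1744, 2541, 2813 and 7088 CPM in the members of CSA libraries 1 to 4, Col1a2 at 949, 996, 1172 and 1584, and Lum at 453, 517, 515 and 947. Pdgfra, the receptor that marks fibroblasts of most tissues and was not used by the gate, stood at 289, 213, 394 and 621 CPM. It had a UMI in 66.9% of members (median 8870.5 UMIs per cell), against 0.236% of T cells (median 6319 UMIs), which gave the background of free RNA.

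Members were then set against the remaining 5031 cells of the same libraries. Because the gate chose the cells in this contrast, the values are a description and carry no test. Of 8886 genes detected in over 10% of members or of remaining cells, with gate and hemoglobin genes left out, 311 (3.5%) were at least 4-fold higher in members in each of the 4 libraries and 373 (4.2%) at least 4-fold lower. These shares are the background for the lists that follow.

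With hemoglobin genes set aside, the most abundant transcript was Ptgds. Its level in members was 48654, 63748, 62033 and 91698 CPM in CSA libraries 1 to 4, against 640, 1734, 392 and 269 CPM in the remaining cells, so the lowest ratio over the libraries was 36.8-fold. In the members that passed no other gate it was 82081, 90840, 71292 and 95912 CPM. Members and remaining cells did not overlap. Ptgds had a UMI in 90.6% of members (86.8 to 93.6%), 35.6% of the remaining cells and 13.9% of T cells, and in 82.4% of members and 4.27% of T cells with each cell thinned to 1500 UMIs. The T cell share differed between libraries, at 62.1%, 66.7%, 7.35% and 7.17% in libraries 1 to 4 against 88.4%, 90.4%, 90.3% and 100% of members, and in library 2 the intervals overlapped. In libraries 1 and 2 most cells of this background type thus held a Ptgds UMI, and the share there says less than the level.

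Transporters made up 4 of the 15 genes with the largest minimum ratio over the libraries. Slc22a6, the organic anion transporter OAT1, was at 508, 634, 778 and 768 CPM in members and at 5.86, 15.9, 1.59 and 0.435 CPM in the remaining cells. Slc6a13, a GABA and taurine transporter, was at 990, 1342, 1384 and 1846 CPM in members, at least 39.3-fold above the remaining cells in each library. Slc13a4, a sulfate transporter, was at 397, 364, 452 and 539 CPM (at least 41.2-fold). In none of these did a library of the remaining cells reach the level of members. Slc7a11, the cystine and glutamate exchanger, was at 2209, 1772, 4362 and 3609 CPM (at least 33.1-fold). Of the 20 measured genes of a list of 28 barrier transporters, 11 were at least 4-fold higher in all 4 libraries and 0 lower.

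Transporter levels were not confined to members in every case. Levels of other cell types are means over the CSA libraries with at least 10 cells outside the members that passed the marker gate of that type and no other. Slc22a8, the organic anion transporter OAT3, reached 203 ± 96.8 CPM in members (SD, n = 4 libraries) and 202 CPM in endothelial cells. Slc6a20a, a transporter of proline and related imino acids, reached 826 ± 139 CPM in members and 483 CPM in pericytes. For Slc22a6 and Slc6a13 the highest other cell type, border macrophages, stood at 4.90 and 13.9 CPM.

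Connexin genes followed the same order. Gjb6 (connexin 30) was at 1012, 847, 1269 and 1070 CPM in members against 11.6, 29.6, 3.98 and 2.32 in the remaining cells, and Gjb2 (connexin 26) at 821, 921, 1292 and 1601 CPM against 14.4, 30.5, 5.89 and 1.52. Both connexins were over 28-fold higher in every library. Of 12 measured junction genes, 3 were at least 4-fold higher in each library and 2 were lower. Tight junction gene Cldn5 of endothelial cells was among the lowest genes in members, with a mean of 4.38 CPM against 704 CPM in the remaining cells.

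Secreted signals high in members included Wnt and BMP ligands. Wnt6, also among those 15 genes, was at 70.5, 125, 91.5 and 81.7 CPM in members. Bmp6 was at 332, 404, 423 and 408 CPM in members against 11.1, 16.8, 3.66 and 1.60 CPM in the remaining cells, and Wnt4 at 255, 364, 452 and 400 CPM against 14.3, 16.9, 3.02 and 2.98. Igfbp2, a binding protein of insulin-like growth factors, was at 3247, 3494, 3699 and 3005 CPM in members, at least 27.0-fold above the remaining cells. Of 34 measured ligands, 13 were at least 4-fold higher in each library and 1 was lower. Ptn, a heparin-binding growth factor, was at 11630 ± 2587 CPM in members but also at 4803 CPM in pericytes, and Vtn (vitronectin) was at 5023 ± 789 CPM in members and higher, at 7566 CPM, in pericytes.

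Transcription factors of the meninges were also high. Foxc1, a forkhead factor needed for meningeal development, was at 508, 459, 463 and 531 CPM in members against 123, 114, 20.2 and 27.1 CPM in the remaining cells. Smooth muscle cells reached 318 CPM of Foxc1 and pericytes 257 CPM. Zic1, a zinc finger factor, was at 615, 470, 583 and 694 CPM, but pericytes reached 583 CPM. Prrx2, a homeobox factor of mesenchyme, had the largest minimum ratio of the genes with at least 50 UMIs in members, 60.9-fold, at 43.8, 68.1, 91.5 and 73.5 CPM. Of 19 measured factors of the list, 9 were at least 4-fold higher in each library and 0 lower. The others of the 15 genes were Mpzl2, Tmem132c, Snhg11, Gxylt2, Col9a2, Crabp2, Ranbp3l and Frmpd4.

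Retinoid genes were high too. Crabp2, which carries retinoic acid to its nuclear receptors, was at 124, 143, 126 and 155 CPM in members, and Aldh1a2, the enzyme that makes retinoic acid, at 324, 338, 269 and 498 CPM against 11.6, 12.6, 3.02 and 0.726 CPM in the remaining cells. Of 8 measured retinoid genes, 4 were at least 4-fold higher and 0 lower. Markers of neurons and T cells were at or near 0: neuron markers summed to 1.07, 0.558, 0 and 0 CPM in the members of libraries 1 to 4, with Syt1, Gad1, Gad2, Slc17a7 and Stmn2 at 0 UMI, and T cell markers to 8.55, 13.4, 0 and 0 CPM. Proliferation genes summed to between 2.14 and 22.9 CPM.

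**Figure D2:**
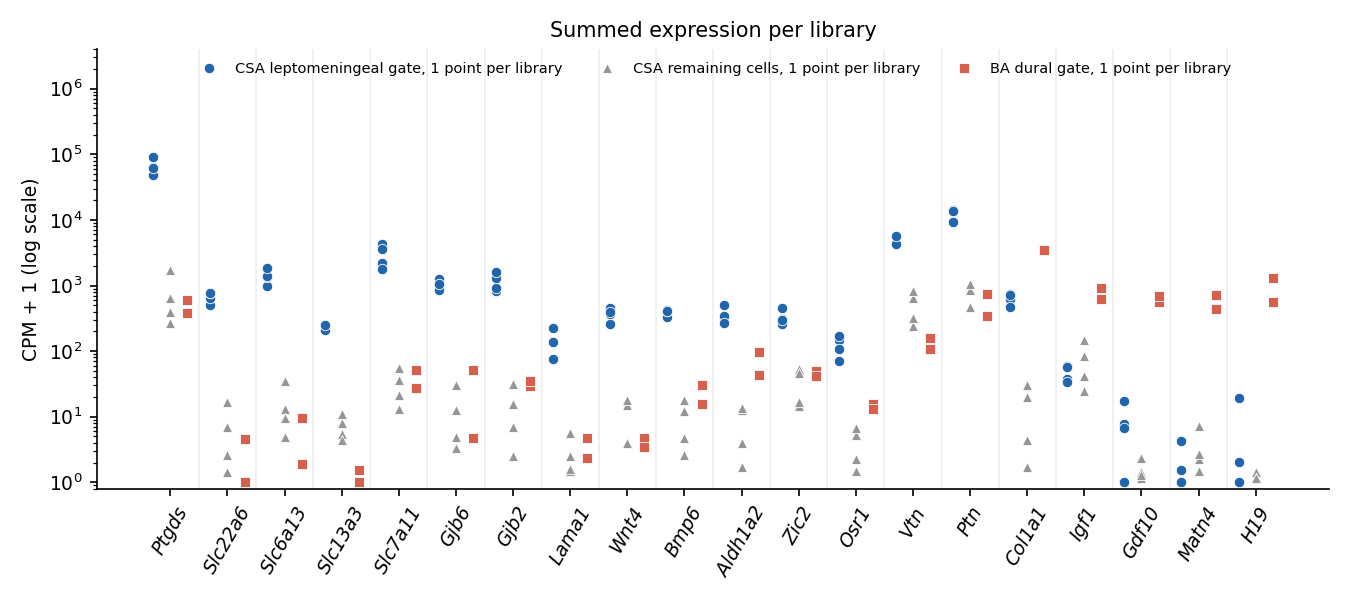
Level of 20 genes (x axis) in CPM plus 1 on a log scale (y axis), with 1 point per library for CSA members, the remaining CSA cells and the BA cells of the same gate. Ptgds, Slc22a6, Gjb6 and the other genes on the left were higher in all 4 CSA member sums than in either other group, and Col1a1, Igf1, Gdf10, Matn4 and H19 on the right were highest in the BA cells.

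Most transcripts varied little between the CSA libraries. Over 1483 genes with a mean of at least 100 CPM, the median coefficient of variation (CV, SD over mean of the 4 libraries) was 0.229, and it was under 0.25 in 825 genes (55.6%). Only 38 genes (2.56%) had a CV of at least 1. The 8 highest were Ttr, Cd74, H2-Eb1, Mrc1, Rrad, Enpp2, Spp1 and Rasl11a.

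Several of these 8 genes mark other cell types. Ttr, the transthyretin of choroid plexus epithelium, was at 30446 CPM in library 1 and at 28.5, 5.72 and 16.3 CPM in the others. Choroid plexus markers as a list summed to 31316 CPM in library 1 and to between 189 and 200 CPM in the others, and 2 members passed the choroid plexus gate. Without the members that passed another gate the sum in library 1 was 259 CPM. Cd74 and H2-Eb1, of the MHC class II pathway, were at 1115 and 577 CPM in library 3 against at most 40.8 and 32.7 CPM in the other libraries, and Mrc1, a macrophage receptor, was at 337 CPM in library 3. Border macrophage markers summed to 284, 110, 1058 and 57.2 CPM in libraries 1 to 4. Library 3 held 31 members. Without the members that passed another gate, the border macrophage markers summed to 42.9, 31.6, 0 and 66.9 CPM, Mrc1 was at 0 in library 3, and Cd74 and H2-Eb1 were each at 7.34 CPM there. Those members were left out by such markers, which in part sets the fall of the choroid plexus and border macrophage sums.

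Smooth muscle and immediate-early genes differed between the library pairs. The 7 smooth muscle markers summed to 7973, 9465, 875 and 65.3 CPM in members of libraries 1 to 4, and the most abundant was Tagln. The 20 immediate-early genes, which are transcribed within minutes of a stimulus, summed to 9190, 13429, 1990 and 3471 CPM. Atf3 was at 483 and 901 CPM in libraries 1 and 2 and had 0 UMI in libraries 3 and 4, and Fos was at 2024, 2607, 200 and 286 CPM. Libraries 1 and 2 were thus above libraries 3 and 4 in both lists. The remaining cells showed the same order of library pairs, so it was not particular to members. There the immediate-early genes summed to 25557, 28302, 6251 and 5904 CPM in libraries 1 to 4. Smooth muscle markers summed to 6830, 6017, 196 and 241 CPM in those cells.

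With the 93 members that passed another gate left out, the immediate-early sums were 2015, 2848, 2004 and 3642 CPM and the library pairs overlapped. Smooth muscle sums were then 201, 283, 110 and 76 CPM, a fall that leaving out cells of the smooth muscle gate sets in part. The leptomeningeal list summed to 87858, 96199, 77024 and 101199 CPM in place of 52337, 67495, 66961 and 96965 CPM. Slc22a6 stood at 787, 881, 866 and 793 CPM in these 215 cells. The spread of Slc22a6 over the libraries was 48.2 CPM (SD, n = 4) there, against 127 CPM with all members.

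**Figure D3:**
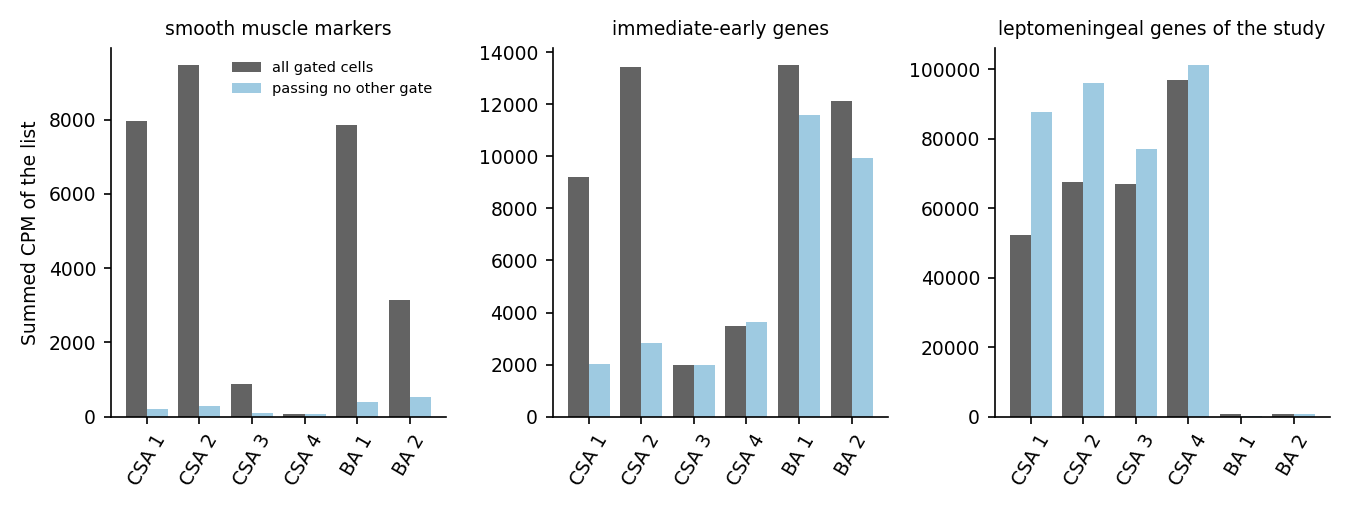
Summed CPM of 3 gene lists (y axis, starting at 0) in the gated cells of each library (x axis), for all gated cells and for those that passed no other gate. Immediate-early sums of CSA libraries 1 and 2 went from 9190 and 13429 to 2015 and 2848 CPM, close to those of libraries 3 and 4. Those of the BA libraries fell to 11590 and 9919 CPM.

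Pial and arachnoid cells form the inner and outer leptomeningeal layers, and the study gives genes for each. The pial list holds Lama1, Lamc3, Coch, Gjb2, Bmp2, Igfbp4 and Cyp1b1 and the arachnoid list Ppp1r1a, Bnc2, Cdh1, Dpp4, Rspo2, Slc47a1 and Opn3. A pial gene had a UMI in 305 of 308 members (99.0%) and in 13.2% of T cells, and 241 members had at least 3. An arachnoid gene had a UMI in 126 members (40.9%, 35.4 to 46.6%) and in 21.5% of T cells (17.7 to 25.7%), and 1 member had at least 3. All 126 had a pial gene as well. T cells came mostly from libraries 3 and 4 and members mostly from libraries 1 and 2, so the shares were also set side by side within each library. A pial gene had a UMI in 93.5 to 100% of members and 6.90 to 14.3% of T cells, and the intervals did not overlap in any library. Igfbp4 of the pial list stood at 329 CPM in members, but also at 52.4 CPM in T cells, 322 CPM in smooth muscle cells and 597 CPM in border macrophages. A UMI of at least 1 pial gene is thus not particular to leptomeningeal cells. For the arachnoid list the share was 46.5%, 44.6%, 22.6% and 20.0% of members in libraries 1 to 4 and 31.0%, 47.6%, 22.8% and 17.3% of T cells. The intervals overlapped in every library. T cells give no background for the list as a whole, because 77 of their 91 cells with an arachnoid gene had a UMI of Dpp4, a surface peptidase, which stood at 39.6 CPM in T cells and 3.06 CPM in members, and Cdh1 stood at 11.8 CPM in T cells and had 0 UMI in members.

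Most members with an arachnoid gene had only one of the list. Of the 126 cells, 113 had a UMI of Ppp1r1a, an inhibitor of protein phosphatase 1, and for 105 (83.3%) it was the only arachnoid gene. Ppp1r1a had a UMI in 44.2%, 41.6%, 12.9% and 8% of members in libraries 1 to 4 and in 0, 0, 0 and 1 of the 29, 21, 136 and 237 T cells, and the exact binomial intervals did not overlap in libraries 1 to 3. Among the other cell types it was highest in choroid plexus epithelium, at 94.3 CPM against 59.4 CPM in members. The choroid plexus value is a mean of libraries 3 and 4 alone, and that of members a mean of libraries 1 to 4. Thinned to 1500 UMIs, 259 of 301 members (86.0%) had a pial gene against 6.87% of T cells, and 40 (13.3%, 9.67 to 17.7%) had an arachnoid gene against 5.21% (3.30 to 7.79%), over libraries that were again unevenly mixed. The unthinned shares of libraries 1 to 4 stood in the same order as the median depths of their members except that libraries 1 and 2 changed places. Thinned, 12.3% of members had UMIs of both lists. The 4 arachnoid genes Cdh1, Dpp4, Rspo2 and Opn3 were not detected in over 10% of members or of gated BA cells.

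A small group of members differed in its transporters. It was chosen after the values were seen and has no test: 7 cells, 0, 4, 1 and 2 from libraries 1 to 4, had UMIs of at least 2 of Slc47a1 (an exporter of organic cations), Slc26a7 (an anion exchanger), Slc4a10 (a bicarbonate transporter) and Bnc2 (a zinc finger factor). Of the other 301 members, 293 had none of these genes and 8 had 1. The 7 cells had a median of 17704 UMIs (5790 to 25806), and none of them passed another gate.

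The 7 cells lacked several transcripts of the other members. They had 0 UMI of Slc22a6, against 1841 UMIs in the other 301 members, of which 228 had at least 1. They also had 0 UMI of Slc6a13, Ranbp3l and Lama1, against 3799, 1198 and 313. With 0 UMI the upper limit in the 7 cells is 29.7 CPM (3 UMIs of their sum), for counting error only. Ptgds stood at 1048 CPM in the 7 cells and 62156 CPM in the others.

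Of the genes that chose the 7 cells, Slc26a7 had 46 UMIs there and 0 in the other members, and Slc47a1 had 84 and 2, as the choice set in part. Several transcripts not used in the choice also stood at a higher level there. Igfbp5, an insulin-like growth factor binding protein, had a UMI in all 7 cells and stood at 9056 CPM, against 29.4 CPM in the others. Of its 916 UMIs in the 7 cells, 558 and 223 were in 2 cells of library 2. The rest of the 7 cells held between 9 and 38 UMIs each, so the summed level is mainly that of 2 cells. Abcb1a, the drug efflux pump P-glycoprotein, had a UMI in 6 of the 7 cells and 8 of the others, and Cldn11, a claudin of tight junctions, in 7 and 22. Of the meningeal factors, Foxc1 was at 514 CPM in the 7 cells and 476 CPM in the others and Zic1 at 465 and 533 CPM, while Bnc2, which helped to choose the cells, was at 168 and 1.37 CPM. The group is described by these genes and was given no cell type name.

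**Figure D4:**
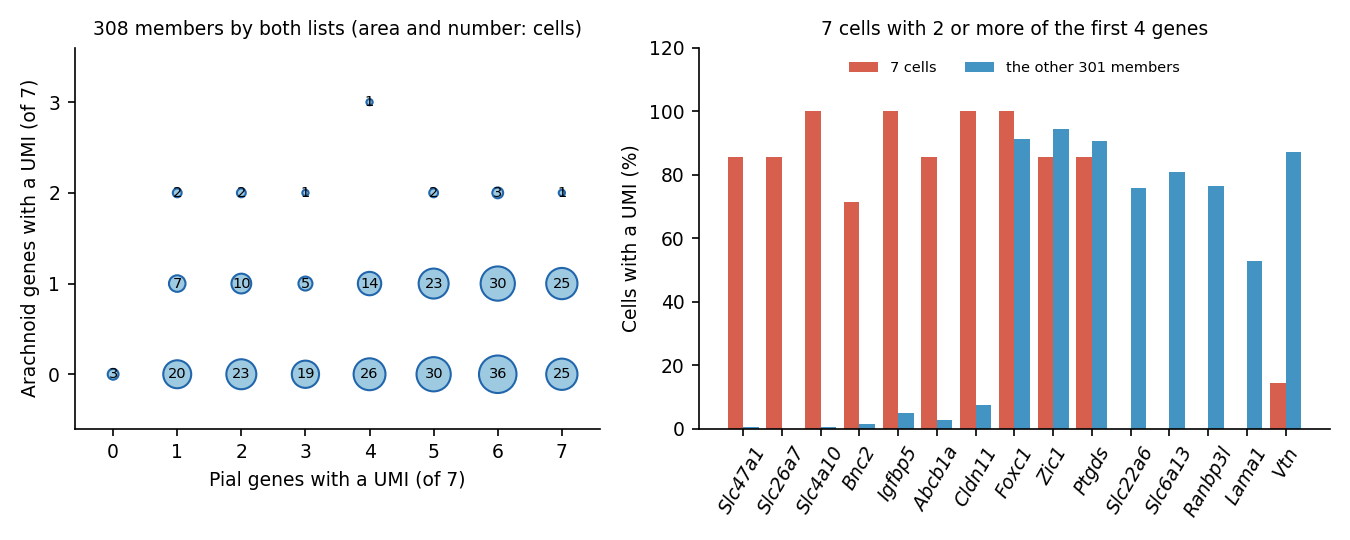
Left, the 308 members by number of pial genes (x axis) and arachnoid genes (y axis) with a UMI, where the area of a circle and the number in it give the cells. Right, share of cells with a UMI (y axis, percent) of 15 genes in the 7 cells described in the text and in the other 301 members. No member had arachnoid genes alone, and Slc22a6, Slc6a13, Ranbp3l and Lama1 were at 0 in the 7 cells.

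Leptomeningeal and dural fibroblasts were compared with the same gate in both preparations, 308 CSA cells against 301 BA cells, summed per library. This asks how mesenchymal cells on the brain side differ from those on the skull side. Of the BA cells, 72 (23.9%) also passed the gate of another cell type, with 63 in that of smooth muscle cells and 27 in that of pericytes. They were 23 of the 50 cells of BA library 1 and 49 of the 251 of BA library 2. In BA library 1, 5 cells passed the choroid plexus gate, and in BA library 2 0 did. Choroid plexus markers summed to 105854 and 45.6 CPM in BA libraries 1 and 2. Without the cells that passed another gate they summed to 140 and 46.3 CPM, a fall that the choice of those cells sets in part. Tissue, dissection and library run differ together between the preparations and cannot be told apart. With edgeR's quasi-likelihood test, 814 of 9632 genes (8.45%) passed a Benjamini-Hochberg adjusted p of 0.05 and a log2 fold change of 1.3, 343 (3.56%) higher in CSA and 471 (4.89%) higher in BA. The median log2 fold change over all tested genes was -0.042. Leaving out BA library 2, which held 251 of the 301 BA cells, gave 528 genes, 219 higher in CSA and 309 higher in BA. In every fit without a BA library the spread comes from the CSA libraries alone, and the lone BA library is assumed to vary like them, so those p-values hold no spread between BA libraries. Without the gated cells that passed another gate, 1354 genes passed, 553 and 801, and these held 776 of the 814. Where a named gene lost its call when a single library was left out, the libraries and the highest edgeR adjusted p of those fits are given with it.

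Several genes had at most 3 UMIs in the gated BA cells. Ranbp3l was at 400, 368, 446 and 710 CPM in CSA libraries and had 0 UMI in both BA libraries, so with a floor of 3 UMIs over the BA cells it was at least 753-fold higher. Without BA library 2 the floor is 2.80 CPM in place of 0.639 CPM, and the bound is 172-fold. Slc30a10, a manganese exporter, had 0 UMI in BA cells and was at least 176-fold higher, Ccr9 (a chemokine receptor) at least 63.0-fold and Fzd10 (a Wnt receptor) at least 61.2-fold. For Sidt1 and Vstm2a the bounds were 47.1-fold and 39.8-fold. With BA library 2 left out the bounds of Slc30a10, Ccr9, Fzd10, Sidt1 and Vstm2a lie between 9.11-fold (Vstm2a) and 40.3-fold (Slc30a10). Slc13a3, which imports dicarboxylates, was at 216, 207, 206 and 253 CPM in CSA and had 2 UMIs in BA cells, a ratio of 496 with a counting interval of 137 to 4108. Zkscan2 had 1 UMI in BA cells, a ratio of 360 (64.0 to 14278). The CSA and BA libraries did not overlap for these genes, as the rule for naming them required.

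The last of the 10 largest differences toward CSA was C1qb, a complement gene of macrophages and microglia. It was at 90.8, 122, 555 and 8.17 CPM in CSA members and had 3 UMIs in BA cells, a ratio of 208 with a counting interval of 70.6 to 1012. Microglia markers summed to 373, 451, 549 and 694 CPM in CSA members, led by Olfml3, and to 439 and 1103 CPM in the BA cells. P2ry12, a defining microglia receptor, stood at 4.28, 3.35, 28.6 and 8.17 CPM in CSA members and had 0 UMI in BA cells. Border macrophage markers summed to 284, 110, 1058 and 57.2 CPM in CSA members, led by Pf4, and to 17.7 and 12.2 CPM in BA cells. Without the gated cells that passed another gate, C1qb was at 36.1, 23.7, 0 and 9.56 CPM in CSA members and 0 and 0.687 CPM in BA cells, so the CSA and BA libraries overlapped (log2 fold change 4.99 in place of 7.96, edgeR adjusted p = 3.29e-05). C1qb lost its call without BA library 2 (adjusted p = 0.0572).

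Of 23 barrier transporters tested, 12 rose in CSA and 3 were higher in BA, with a median log2 fold change of 2.64. Slc22a6 was at 508, 634, 778 and 768 CPM in CSA and 0 and 3.59 CPM in BA (log2 fold change 8.01, SE 0.69, edgeR adjusted p = 8.3e-05). Slc6a13 was at 990, 1342, 1384 and 1846 CPM against 0.932 and 8.56 CPM (7.89, SE 0.73, adjusted p = 0.000104). Slc22a8 and Slc6a12, their neighbours in the genome, also rose, by 6.75 (SE 0.70) and 5.68 (SE 0.70) on the log2 scale. The levels of Slc22a8 were 121, 166, 183 and 343 CPM against a mean of 2.28 ± 2.05 CPM in BA (SD, n = 2).

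Amino acid carriers were among the same group. Slc7a11 was at 2209, 1772, 4362 and 3609 CPM against 51.2 and 26.0 CPM in BA (log2 fold change 6.25, SE 0.66), and Slc1a3, a glutamate transporter, at 559, 673, 1052 and 1151 CPM against a BA mean of 18.8 ± 8.16 CPM (SD, n = 2), a log2 fold change of 5.42 (SE 0.53). Slc4a10, Slc23a2 (which imports ascorbate) and Slc38a2 (a neutral amino acid carrier) were higher in BA, and Slc4a10 lost its call without the cells that passed another gate. These 3 genes also lost it when a library was left out: Slc4a10 without CSA 1, CSA 2 or BA 1 (adjusted p up to 0.119), Slc23a2 without CSA 1, CSA 2 or BA 2 (up to 0.103) and Slc38a2 without CSA 1, CSA 2, CSA 3 or BA 2 (up to 0.159). Transporters higher in BA were then 1 without CSA 1 or BA 2 and 0 without CSA 2. Without the cells that passed another gate, 15 transporters were higher in CSA and 4 in BA, with a median log2 fold change of 5.30.

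Junction genes changed in both directions. Of 13 tested, the gap junction genes Gjb2, Gjb6 and Gja1, the scaffold Tjp1 and the adherens cadherin Cdh5 rose in CSA, and Cldn11 and Cdh11 were higher in BA. Gjb6 was at 1012, 847, 1269 and 1070 CPM in CSA and 3.73 and 49.7 CPM in BA (log2 fold change 5.17, SE 0.79, edgeR adjusted p = 0.00162). Gjb2 was at 821, 921, 1292 and 1601 CPM against 28.9 and 34.5 CPM (5.14, SE 0.47, adjusted p = 0.000104). Cdh5, also called VE-cadherin, was at 105, 102, 114 and 163 CPM in CSA and 9.32 and 8.56 CPM in BA. The CSA level was above BA in every library. Tjp1 lost its call without BA library 2 (adjusted p = 0.0527), where 4 junction genes were higher in CSA and 4 in BA. Endothelial cells held 545 CPM of Cdh5, and endothelial markers, led by Cdh5 itself, summed to 200, 237, 234 and 196 CPM in CSA members.

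Matrix genes went the other way. Of 24 fibrillar and elastic matrix genes, 14 were higher in BA and 0 in CSA, with a median log2 fold change of -1.66. Without BA library 2, 8 were higher in BA and 1 in CSA, and 1 was higher in CSA also without CSA library 2 or 4. Col1a1, of type I collagen, was at 620, 745, 463 and 719 CPM in CSA and 3503 and 3434 CPM in BA (log2 fold change -2.48, SE 0.33, edgeR adjusted p = 0.000724). Mgp, an inhibitor of calcification, was at 373, 1711, 778 and 2164 CPM against 7695 and 22512 CPM (-3.61, SE 0.67). Without the gated cells that passed another gate, Col1a1 stood at 8217 and 3682 CPM in BA libraries 1 and 2. Mgp then stood at 16281 and 24503.5 CPM there. The basement membrane list was different: 4 of 18 rose in CSA (Lama1, Lamc3, Col4a5 and Col4a6) and 0 were higher in BA, and without the cells that passed another gate 5 of 17 rose and 1 was higher in BA. Lama1, a laminin chain, was at 136, 75.3, 137 and 220 CPM against 3.73 and 1.38 CPM (5.91, SE 0.61). Col4a5 lost its call without BA library 2 (adjusted p = 0.0672), and Bgn, among the matrix genes higher in BA, without CSA library 1 or BA library 2 (up to 0.180). Neither the collagen IV genes Col4a1 and Col4a2 nor Nid1 and Hspg2 passed the test. For fibroblast identity genes outside the gate, 8 of 11 were higher in BA and 0 in CSA. Without BA library 2, 4 of them were higher in BA, and without CSA library 2, or without CSA libraries 1 and 2, 1 was higher in CSA. Pdgfra was at 379 ± 177 CPM in CSA (SD, n = 4) and 130 ± 6.37 CPM in BA (SD, n = 2), with an edgeR adjusted p of 0.0574. The small spread in BA held only with all gated cells. Without those that passed another gate, Pdgfra was at 280 and 147 CPM in BA libraries 1 and 2. In CSA it was then at 442, 293, 462 and 621 CPM.

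Secreted ligands changed in both directions: 11 of 45 rose in CSA and 9 were higher in BA. Without the cells that passed another gate, 13 of 43 rose and 14 were higher in BA. With all gated cells, those that rose were Bmp2, Bmp4, Bmp6, Bmp7, Wnt4, Wnt5a, Wnt6, Sema3a, Sema3d (guidance cues), Il34 (a ligand of the Csf1 receptor) and Ptn. Wnt4 was at 255, 364, 452 and 400 CPM in CSA and 3.73 and 2.49 CPM in BA (log2 fold change 6.90, SE 0.50, edgeR adjusted p = 2.89e-05). Bmp6 was at 332, 404, 423 and 408 CPM against 29.8 and 14.6 CPM (4.15, SE 0.42), and Bmp7 at 129, 157, 143 and 196 CPM against 23.3 and 1.93 CPM (3.84, SE 0.75). The libraries did not overlap between the preparations for the 4 BMP and 3 Wnt genes named here, as for 12.2% of all tested genes in this direction. Bmp4 lost its call without CSA 2 or BA 2 (adjusted p up to 0.174), Sema3a without CSA 1, CSA 2 or BA 2 (up to 0.139) and Sema3d with any single library but CSA 1 left out (up to 0.173).

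Ligands higher in BA were Igf1, Gdf10, Sema3f, Il33, Kitl, Gas6, Rspo1, Slit2 and Cxcl14. Igf1, the insulin-like growth factor, was at 58.8, 36.8, 57.2 and 32.7 CPM in CSA and 631 and 913 CPM in BA (log2 fold change -4.08, SE 0.33, edgeR adjusted p = 6.39e-05). Without the gated cells that passed another gate, Igf1 stood at 1488 and 1029 CPM in BA libraries 1 and 2. Gdf10, a BMP-related ligand, was at 0, 6.69, 5.72 and 16.3 CPM against 551 and 693 CPM (-6.98, SE 0.63). Sema3f and Kitl lost their calls without CSA 2 or BA 1 (adjusted p up to 0.110 and 0.0553) and Rspo1 without CSA 1 (0.0538). The 5 Gdf10-positive cells of the group of 7 held all 15 of its UMIs in CSA members.

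Of 22 secreted binding proteins and antagonists, 1 rose in CSA (Igfbp2) and 10 were higher in BA. Without the cells that passed another gate, 4 of 21 rose and 12 were higher in BA. With all gated cells, those higher in BA were Igfbp4, Igfbp5, the BMP and activin antagonists Nog, Chrdl1 and Fst, the related Fstl1, the Wnt modulators Sfrp2, Sfrp4 and Dkk2, and Cyr61. Igfbp2 was at 3247, 3494, 3699 and 3005 CPM in CSA and 851 and 172 CPM in BA (log2 fold change 2.67, SE 0.62, edgeR adjusted p = 0.0186). Without the gated cells that passed another gate, Igfbp2 stood at 271 and 181 CPM in BA libraries 1 and 2. Sfrp2 had 0 UMI in CSA members and was at 142 and 210 CPM in BA, at least 177-fold higher there. Without BA library 1, 3 of these genes were higher in CSA. Receptors were divided, with Tgfbr1, Plxna2 and, in the same list, the ligand gene Edn3 higher in CSA and Egfr, Nrp1, Nrp2, Lrp6 and Ednra higher in BA, of 30 tested. Of these genes, Igfbp2 and Fstl1 lost their calls without BA 2 (adjusted p = 0.0600 and 0.1003), Igfbp5 without CSA 3 or BA 2 (up to 0.0652) and Cyr61 with any 1 of the 6 libraries left out (up to 0.184). Receptors called without the cells that passed another gate were 5 higher in CSA and 7 in BA, of 29. Receptors higher in BA numbered 1 without CSA 1 and 2 without CSA 2 or BA 2. Among the receptors, Egfr lost its call without CSA 1 or CSA 2 (up to 0.0599), Nrp2 and Lrp6 without CSA 1, CSA 2 or BA 2 (up to 0.225 and 0.167), Tgfbr1 without CSA 2, CSA 3 or either BA library (up to 0.155) and Ednra without CSA 1, CSA 3 or either BA library (up to 0.0948).

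Transcription factors also parted. Of 25 tested, Zic1, Zic2, Zic4, Zic5, Tbx18 and Osr1 rose in CSA, and those higher in BA included Foxp2, Twist1, Six2, Bnc2, Msx2, Runx2 and Dlx5. Tbx18, a T-box factor of mesenchyme around vessels and organs, was at 199, 182, 240 and 294 CPM in CSA and 25.2 and 33.7 CPM in BA (log2 fold change 2.87, SE 0.35, edgeR adjusted p = 0.000471). Runx2, the factor that directs bone formation, was at 9.62, 7.81, 11.4 and 8.17 CPM against 50.3 and 78.4 CPM (-2.92, SE 0.35). Foxc1 was above BA in each CSA library, at 490 ± 35.1 against 259 ± 38.5 CPM (log2 fold change 0.88, SE 0.29), and did not pass (adjusted p = 0.0958). Foxp2 and Twist1 lost their calls without BA 2 (adjusted p = 0.0685 and 0.131), Zic1 without BA 1 (0.0565), Bnc2 without CSA 1, CSA 2 or BA 2 (up to 0.141) and Msx2 with any single library but BA 1 left out (up to 0.639). Without BA 2, 4 factors of the list were higher in BA in place of 8.

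Bone and cartilage genes were higher in BA where they passed. Of 8 tested osteogenic genes, 5 were higher in BA (Runx2, Alpl, Acan, Chad and Dlx5) and 0 in CSA. Chad, a cartilage matrix protein, had 0 UMI in CSA members and stood at 45.7 and 972 CPM in BA, at least 513-fold higher there, but at least 46.0-fold without BA library 2. Tnmd (a tendon protein), Kcns1, Col6a5, Nppc, Gpha2 and Prss12 also had 0 UMI in CSA members and were at least 118-, 98.0-, 95.9-, 93.4-, 38.3- and 34.1-fold higher in BA. Without BA library 2 the bounds of Tnmd, Kcns1, Col6a5, Nppc and Prss12 are 76.1-, 45.1-, 56.4-, 9.40- and 28.2-fold, and Gpha2, at 2.80 and 73.2 CPM in BA libraries 1 and 2, has only 3 UMIs in BA library 1. Gpx3, a secreted peroxidase, was at 7.48, 6.69, 0 and 0 CPM against 1911 and 3711 CPM, and Matn4, a matrilin, at 3.21, 0.558, 0 and 0 CPM against 443 and 719 CPM. All 10 genes with the largest differences toward BA were without overlap between the preparations, as the rule for naming them required. Alpl lost its call without CSA 3, CSA 4 or BA 2 (adjusted p up to 0.256) and Gpha2 without CSA 1, CSA 2 or BA 2 (up to 0.198).

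The remaining lists were smaller. The 10 leptomeningeal genes all rose in CSA, with a median log2 fold change of 4.64, and 8 of 9 dural genes were higher in BA, both on lists of genes that the study names for these cells, in part from earlier work and in part from these libraries, so the counts are no independent evidence of their direction. Of 8 retinoid genes, Aldh1a1, Aldh1a2 and Crabp2 rose in CSA, and without the cells that passed another gate 4 rose and 1 was higher in BA. Crabp2 was at 124, 143, 126 and 155 CPM against 4.66 and 46.7 CPM (edgeR adjusted p = 0.0356). Of 9 prostaglandin and lipid genes, Ptgds, Apoe and Apod rose, and Ptgs2, Hpgd and Lpl were higher in BA. Ptgds was at 66533 ± 18082 CPM in CSA (SD, n = 4) and 497 ± 155 CPM in BA (SD, n = 2), a log2 fold change of 7.02 (SE 0.79, adjusted p = 0.000277). Without the gated cells that passed another gate, Ptgds stood at 2.26 and 481 CPM in BA libraries 1 and 2. Of 9 complement and innate genes, C4b rose and C1ra, C1s1 and Cxcl1 were higher in BA. Crabp2 lost its call with any 1 of the CSA libraries left out (adjusted p up to 0.0868), Apod with any 1 of the 6 libraries left out (up to 0.161), Lpl without CSA 1, CSA 2, CSA 4 or BA 1 (up to 0.218) and C4b without CSA 1 or BA 2 (up to 0.129). Without BA 1, 2 complement and innate genes were higher in CSA. Of the dural genes, Ostn lost its call without CSA 2 or BA 2 (up to 0.329).

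Of the layer genes, 5 of 7 pial genes rose in CSA (Lama1, Coch, Lamc3, Gjb2 and Bmp2), Igfbp4 was higher in BA and Cyp1b1 did not pass. Of 3 arachnoid genes tested, Ppp1r1a rose, Bnc2 was higher in BA and Slc47a1 did not pass, and without the cells that passed another gate 2 were higher in BA. Ppp1r1a was at 82.3, 79.2, 51.5 and 24.5 CPM in CSA and 21.4 and 1.93 CPM in BA (log2 fold change 2.80, SE 0.75, edgeR adjusted p = 0.0405). Its lowest CSA library was close to the higher BA library. Ppp1r1a lost its call without CSA 1, CSA 2, CSA 3 or BA 2 (adjusted p up to 0.136), and Bnc2 without CSA 1, CSA 2 or BA 2 (up to 0.141).

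Stress genes depended on which cells were counted. Of 20 immediate-early genes, 3 (Fosl2, Egr2 and Egr3) were higher in BA with all gated cells, and 16 of 19 tested without the cells that passed another gate. Their sum in BA cells was 13494 and 12135 CPM with all gated cells and 11590 and 9919 CPM without those cells. Without CSA libraries 1 and 2, 15 were higher in BA, and without libraries 3 and 4, 3 were. Without CSA library 2 alone, 5 were. Over all tested genes, 471 of 9632 were higher in BA with all gated cells and 801 of 9488 without the cells that passed another gate. Without CSA libraries 1 and 2 the count was 333 of 9632, and without libraries 3 and 4 it was 402. Smooth muscle markers moved too: 0 of 7 were higher in BA with all gated cells and 5 without CSA libraries 1 and 2. Without the cells that passed another gate, 2 of the 3 tested were. Of 10 heat shock genes, Dnajb1 alone was higher in BA with all gated cells. It was 3 without the cells that passed another gate, 6 without CSA libraries 1 and 2 and 2 without CSA library 1 alone. Digest and dissection differed between the preparations, and their part in these values cannot be told apart from that of the tissue.

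**Figure D5:**
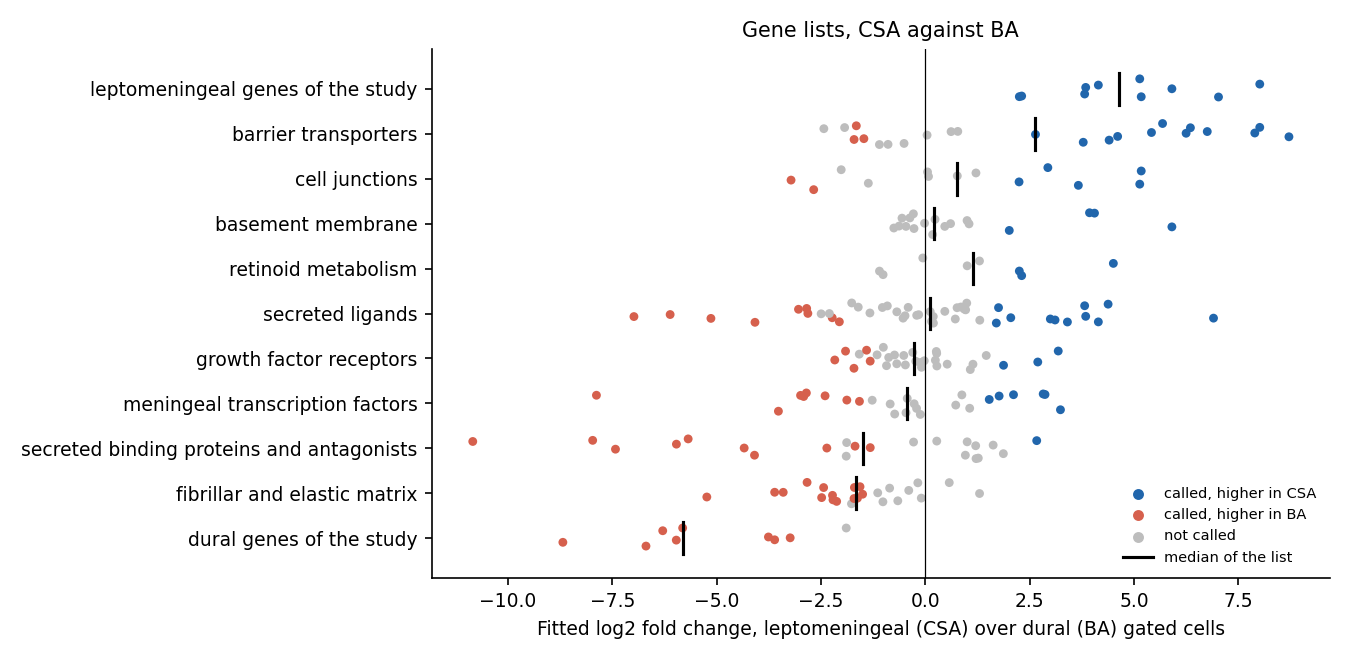
Fitted log2 fold change of leptomeningeal (CSA) over dural (BA) gated cells (x axis) for the tested genes of 11 lists (y axis), 1 point per gene, coloured by call, with the median of each list as a black bar. The medians of barrier transporters and of fibrillar and elastic matrix genes lay at 2.64 and -1.66.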

How the data were processed

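The authors processed the reads with Cell Ranger against mm10 and deposited raw UMI counts per gene and cell barcode, 1 matrix per library, without normalization. The submitters' processing notes give version 3 and the file headers 6.1.2. For dissociation the study's methods describe collagenase and dispase, whereas the labels describe papain and another brain region. Library totals were 8408685, 16998497, 55385796 and 56169736 UMIs for CSA libraries 1 to 4 and 12041325 and 27511208 for the BA libraries. Hemoglobin transcripts made up 0.287%, 0.0906%, 84.6% and 71.9% of these totals in CSA libraries 1 to 4. In the BA libraries they made up 0.496% and 0.520%.

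The members and gene lists were chosen with earlier results of these data known. Libraries were grouped by their labels. Member and remaining counts were summed per library and given as CPM without hemoglobin genes, with 0.5 UMI added to each sum for ratios. For CSA against BA, the summed counts of genes with a UMI in more than 10% of CSA or BA gated cells entered edgeR 4.0.16 (R 4.3.3, TMM normalization, quasi-likelihood test, Benjamini-Hochberg adjustment over all 9632 genes), and a call needed an adjusted p below 0.05 with a log2 fold change of 1.3 or more in size. No replicate block was used. In counts simulated from these sums, 70 of 100 genes changed 4-fold were recovered with 11 false calls among 9640 genes. Of 100 genes changed 2-fold, 2 passed the adjusted p. The changed genes were drawn only from those above a minimum expected count in the smallest library. These recovery rates therefore do not cover tested genes with lower counts. Doublets were scored with Scrublet (scanpy 1.11.5) and not removed, and free RNA was not corrected.

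Named genes are those of the lists, the 15 with the largest minimum ratio over the remaining cells, the 10 with the largest fitted change in each direction among called genes with at least 50 UMIs and no overlap, and the 8 with the largest CV. Folds against a group at 0 were computed against 3 counts over the group. For the 10 genes with the largest change in each direction, a 95% counting interval is given at 1 to 3 counts. For other genes with so few counts only the fitted value is given. Gene positions come from the GENCODE annotation of GRCm38, which held 30934 of the 31053 genes, and promoters from RefSeq, which held a window for 108 of 141 named genes. Alternatives were other gates, cell filters, gene filters and normalizations, DESeq2 1.42.0, a replicate block, thinned cells and each library left out. Leaving out cells that passed another gate or a pair of CSA libraries was added after seeing the data. Imaging and spatial data were not analysed here, and some genes of the lists are not reported here by name.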

Additional observations from a re-analysis of the deposited data

Results flagged for a closer look

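Of 171 gene levels and list sums checked over the 4 CSA libraries, 18 (10.5%) had a single library far from the others by Dixon's criterion. Chance flags about 1 of 20 groups of independent values, but that rate is no yardstick here: 5 of the 18 are among the 8 genes named for the largest CV over these libraries, and in 6 the other libraries were all at 0. Each value is the CPM of the library that stood apart, always the highest, with the nearest other library in brackets. CSA library 3, with 31 members, stood apart for Cd74 (1115, nearest 40.8), H2-Eb1 (577, nearest 32.7), Mrc1 (337, nearest 50.2), Zic5 (154, nearest 89.8), Bmp4 (91.5, nearest 65.3), Chrdl1 (22.9, nearest 2.14) and Nog (5.72, nearest 0). The cell of library 3 with the most UMIs of a gene held 192 of 195 for Cd74, all but 1 for H2-Eb1, 40 of 59 for Mrc1 and all 4 for Chrdl1, and the Nog value is a single UMI. The first 3 are macrophage and antigen presentation genes, and 2 members of library 3 and 0 of library 4 passed the border macrophage gate.

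CSA library 2 stood apart for H19 (18.4, nearest 1.07), Col14a1 (15.6, nearest 0), Shisa3 (9.48, nearest 0), Il33 (7.81, nearest 0) and Ostn (0.558, nearest 0, a single UMI), all genes that were higher in the BA cells, of which Ostn lost its call there without CSA library 2 or BA library 2 (edgeR adjusted p up to 0.329). It held 4 of the 7 cells with transporters such as Slc47a1, and of the 28 Col14a1 UMIs in CSA members those 7 cells held 26. CSA library 1 stood apart for Ttr (30446, nearest 28.5), the choroid plexus list (31316, nearest 200) and Enpp2 (2172, nearest 310), a gene that choroid plexus epithelium also expresses, and for Egr3 (3.21, nearest 0, from 3 UMIs). For Ttr 28482 of 28487 UMIs, and for Enpp2 1887 of 2032, were in a single cell. CSA library 4 stood apart for Egfr (81.7, nearest 34.3) and Bnc2 (57.2, nearest 6.14, with 6 of 7 UMIs in a single cell).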

How the results depend on the processing

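The number of members depended on the limits set, with 79 at a limit of 5% mitochondrial UMIs, 468 without the limit on Ptprc, Pecam1 and Kcnj8 and 195 without cells that had Ccl19 or Colec11. Members with UMIs of both layer lists were 12.3% of thinned cells and 34.9% without Ccl19 or Colec11 cells. Genes called between CSA and BA (814; 343 higher in CSA, 471 higher in BA) were 474 (197 and 277) with at least 3 markers, 1306 (540 and 766) with 5 and 1384 (572 and 812) with 6. They were 401 (166 and 235) without Ccl19 or Colec11 cells and 1354 (553 and 801) without cells that passed another gate. In cells thinned to 1500 UMIs, 414 (188 and 226) of 2621 tested genes were called. With no detection filter it was 1303 of 17560 (801 higher in BA), against 814 of 9632 in the main fit. Leaving out each library gave 528 to 873 calls, 219 to 350 higher in CSA and 309 to 523 higher in BA, with the lowest without BA library 2. The cause of these shifts was not tested.

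Other settings moved the total by less than 1.5 times: 644 with DESeq2, 691 with edgeR's own expression filter, 816 and 814 with other normalizations, 715 without CSA libraries 3 and 4 and 624 without libraries 1 and 2. Of the 814 calls, 649 were shared without libraries 3 and 4, 431 (52.9%) without libraries 1 and 2 and 464 without BA library 2. The deviations of same-numbered libraries correlated at 0.310 for number 1 and -0.0006 for number 2, which does not show pairing, and a replicate block gave 807 calls. Over the named genes, 3275 values kept direction and call, 282 values of 59 genes lost the call (among them Apod and Cyr61 with any 1 of the 6 libraries left out) and 5 values of Pdgfra gained it. Without the limit on Ptprc, Pecam1 and Kcnj8, the log2 fold changes of Cyp1b1 and C4b turned to -0.019 and -0.033, and in thinned cells that of Cxcl1 turned to 0.77. Depth limits libraries 3 and 4, whose members held 350008 UMIs together against 2728074 in libraries 1 and 2.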

Other observations

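Some genes counted as markers of other cell types were carried by members that passed no other gate. The microglia list holds Olfml3 (a secreted protein) and Tmem119 (a membrane protein). In the 215 members that passed no other gate they stood at 302, 355, 264 and 325 CPM (Olfml3, libraries 1 to 4) and between 44.0 and 172 CPM (Tmem119). The gated BA cells held Olfml3 at 307 and 813 CPM and Tmem119 at 66.1 and 148 CPM. P2ry12 and Cx3cr1 were at 9.56 CPM or less in those 215 members, a level that leaving out cells of the microglia gate sets in part. Olfml3 and Tmem119 count toward the microglia gate that 30 members passed.

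Sall1, a zinc finger factor known for microglia and the developing kidney, stood at 28.9, 17.3, 28.6 and 49.0 CPM in CSA members, against 277 CPM in microglia. In BA cells it was at 0 and 0.276 CPM (log2 fold change 6.38, SE 0.76, edgeR adjusted p = 0.000409). Both BA values lie below the floor of 0.639 CPM that 3 UMIs over the BA cells give, so the fitted fold is imprecise. In the 215 members it stood at 40.6, 10.8, 29.4 and 47.8 CPM. Cdh5 in those members was at 156, 144, 125 and 172 CPM, while Cldn5 was at 6.77, 7.89, 0 and 9.56 CPM.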
